A study of Homo sapiens with 4 samples.

Results

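The 10 genes DUSP1, DUSP2, DUSP4, DUSP5, DUSP6, DUSP7, SPRY1, SPRY2, SPRED1 and SPRED2 encode proteins that switch MAP kinase signalling off again after it has been switched on. They were taken by symbol from a table of 58302 genes, and each symbol matched 1 row. RNA sequencing of total RNA had been done on 4 libraries of BLaER1, 2 from undifferentiated cells and 2 from cells given 100 nM oestradiol together with the cytokines M-CSF and IL-3 over 5 to 6 days. BLaER1 is a clonal human B cell leukaemia line whose cells, before and after differentiation, carry an introduced fusion of C/EBPα with the hormone-binding part of the oestrogen receptor. Oestradiol activates the fusion, and the cells take on macrophage features. The labels name no separate cultures, so each p-value reflects how far these particular libraries vary, perhaps only technically, and the results hold for 1 line.

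In the MAP kinase cascade, a receptor activates RAS through adaptors and exchange factors, RAS activates RAF, RAF activates MEK, and MEK phosphorylates ERK on a threonine and a tyrosine. The DUSP proteins of this group are dual-specificity phosphatases that remove both phosphates: DUSP1, DUSP2, DUSP4 and DUSP5 act in the nucleus, whereas DUSP6 and DUSP7 act in the cytoplasm and prefer ERK. Sprouty proteins (SPRY) restrain signalling between receptor and RAF, and SPRED proteins bring the RAS inactivator neurofibromin, the product of NF1, to the membrane. Several of these genes are themselves transcribed in response to ERK activity, which makes them feedback regulators, and the M-CSF receptor signals through this cascade in macrophages.

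Promoter sequences are shown for the 3 members that were most abundant in differentiated cells, so that the start regions of the genes with the largest values can be compared. Each is the 250 bases before the RefSeq transcript start, on GRCh38.p14, written 5′ to 3′ on the gene's strand. DUSP6 lies on the minus strand at chr12:89352502-89352751, SPRED1 on the plus strand at chr15:38252586-38252835, and DUSP1 on the minus strand at chr5:172771196-172771445. Capitals mark matches to the cAMP response element TGACGTCA and its core TGACG on either strand, where the full element contains 2 overlapping cores. AP-1 (TGANTCA), ETS (CCGGAA), C/EBP (TTNNGNAA) and CArG box motifs were also searched on both strands and would be in capitals.
DUSP6: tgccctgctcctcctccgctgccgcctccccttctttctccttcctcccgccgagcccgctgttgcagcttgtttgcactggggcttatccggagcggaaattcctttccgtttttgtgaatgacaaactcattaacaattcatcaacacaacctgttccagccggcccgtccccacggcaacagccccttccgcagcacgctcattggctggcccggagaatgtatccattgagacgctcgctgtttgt
SPRED1: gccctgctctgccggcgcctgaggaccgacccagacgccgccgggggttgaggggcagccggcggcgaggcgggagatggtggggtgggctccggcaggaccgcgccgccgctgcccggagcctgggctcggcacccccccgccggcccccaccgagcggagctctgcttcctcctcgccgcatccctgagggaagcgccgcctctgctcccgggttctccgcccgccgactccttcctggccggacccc
DUSP1: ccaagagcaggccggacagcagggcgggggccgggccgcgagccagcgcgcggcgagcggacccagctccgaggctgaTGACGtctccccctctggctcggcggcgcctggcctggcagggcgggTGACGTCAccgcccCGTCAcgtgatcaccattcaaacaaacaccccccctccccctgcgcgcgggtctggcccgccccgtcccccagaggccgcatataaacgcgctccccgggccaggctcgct

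The DUSP1 window held 4 cores, at 107 to 111, 118 to 122, 121 to 125 and 168 to 172 bases before the start, and the middle pair formed 1 full element. A full element occurred in 1.65% and a core in 21.2% of 35116 RefSeq windows of the same length. The windows of DUSP6 and SPRED1 held no match to any of the 6 motifs, which says only that these letters are not in this stretch. The other motifs occurred in 6.57% (AP-1), 14.5% (ETS), 33.2% (C/EBP) and 1.16% (CArG) of all windows. RefSeq windows were used for 8 of the 10 members, and none was used for DUSP4 or DUSP5. The matches are a description of the letters, and binding was not measured.

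The values are TPM, a transcript abundance scaled by gene length and by library total, which lets genes be compared with each other. How many reads lie behind a TPM value is unknown, and no detection limit can be given. Protein-coding genes took 12.2% and 13.5% of a differentiated library and 23% and 15.6% of an undifferentiated one, while the small nuclear RNA RN7SK took 20.9% and 23.5%, against 35.5% and 41.7%. Undifferentiated library 1 lay above library 2 by a median of 0.51 on the log2 scale, and 9 of the 10 members were higher in library 1. In the B lineage list, where VPREB1 and EBF1 were the most abundant, all 6 genes fell and in the macrophage list (CD14, CD68, CSF1R, ITGAM, FCGR1A, MSR1) all 6 rose, which matches the labelled stages. Some calls of the B lineage list were lost without differentiated library 1 or 2, where fewer of all tested genes were called too. The median log2 difference of the list was then -3.15 and -3.06. Of the other lists of cell type markers, the 6 T and NK genes summed to 5.41 and 7.55 TPM in differentiated and 111 and 51.9 TPM in undifferentiated libraries, nearly all of it from the T cell receptor constant gene TRAC, with CD3D and CD3E at 0 in all 4. TRAC was called lower. The 5 erythroid genes summed to 0.70 and 0.42 TPM after and 0 before differentiation. The 6 stromal and epithelial genes summed to 1.20 and 0.55 TPM after differentiation, against 5.26 and 2.25 before it, mostly from PDGFRB. The part of these genes in the results below was not tested.

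Of the 10 members, 7 reached 1 TPM in at least 2 libraries and were tested with limma on log2(TPM + 1). DUSP6, SPRED1 and DUSP7 rose in differentiated cells, DUSP4 fell, and DUSP1, SPRY2 and SPRED2 were not called at an adjusted p below 0.05. Among all 10180 tested genes 18.6% were called higher and 22.8% lower. DUSP7 and SPRED1 passed the filter on low values only through the differentiated libraries, where they were high, and DUSP4 only through the undifferentiated ones, so the counts of tested members are a description. Without the filter the median log2 difference of all 10 members was 0.60, against 0.03 over 29186 genes. Most of those genes lay below the filter, against 3 of the 10 members, and this scale understates changes of low genes. The 2 medians are therefore not a like comparison. Of the 7 tested members, 5 had stages without overlap, 4 higher and 1 lower in differentiated cells, against 31% and 39% of all tested genes. In such bulk samples fewer cells that express a gene and less of its RNA per cell cannot be told apart.

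**Figure D1:**
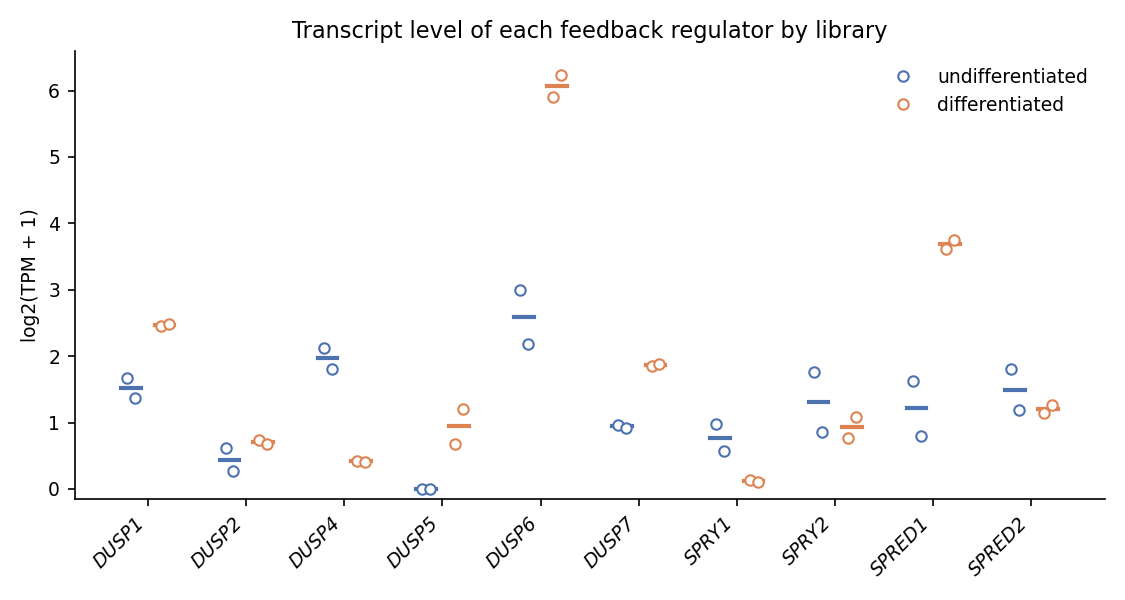
Level of each of the 10 genes on the log2(TPM + 1) scale (y axis) in every library. Circles are single libraries and bars are means of the 2 libraries of a stage, with undifferentiated cells in blue and differentiated cells in orange. DUSP6 stood highest at both stages, the orange circles of DUSP6 and SPRED1 lay well above the blue ones, and those of DUSP4 and SPRY1 lay below.

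The cytoplasmic ERK phosphatases DUSP6 and DUSP7 both rose, from very different levels. DUSP6 (ENSG00000139318), a phosphatase selective for ERK, had 58.94 and 74.01 TPM in the 2 differentiated libraries, against 6.99 and 3.56 in the undifferentiated ones. Both differentiated libraries stood far above both undifferentiated ones, and the lower differentiated value was 8.43 times the higher undifferentiated value. The means were 66.5 ± 10.7 and 5.28 ± 2.43 TPM (SD, n = 2), a ratio of 12.6. The log2 difference was 3.47 ± 0.40 (SE), with a 95% interval from 2.61 to 4.34 and an adjusted p of 2.4e-05, and it ranked 221 among the 10180 tested genes ordered from the largest rise. DUSP6 kept its call under all 15 alternatives, with a log2 difference from 3.07 to 4.24 and an adjusted p of at most 0.0361.

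DUSP7 (ENSG00000164086), a close relative of DUSP6, was listed at 2.61 and 2.67 TPM after differentiation, against 0.95 and 0.89 before it. The 2 libraries of each stage lay close together and the stages did not overlap. The log2 difference was 0.92 ± 0.31 (SE, adjusted p = 0.0275), a ratio of means of 2.87. The call was lost without differentiated library 1 (adjusted p = 0.144) or 2 (adjusted p = 0.151), without the filter on low values (adjusted p = 0.111) and against a minimum log2 change of 1 (adjusted p = 1). DUSP6 mRNA was 22.6 and 27.7 times as abundant as DUSP7 mRNA in the differentiated libraries and 7.36 and 4 times in the undifferentiated libraries.

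The nuclear phosphatases did not move together. DUSP4 (ENSG00000120875), an inducible nuclear enzyme that acts on ERK, JNK and p38, was listed at 0.34 and 0.33 TPM after differentiation, against 3.35 and 2.51 before it. It was low in both differentiated libraries, and its mean before differentiation was 8.75 times that after it. The log2 difference was -1.55 ± 0.28 (SE), with a 95% interval from -2.15 to -0.95 and an adjusted p of 0.00059. The call was lost without differentiated library 1 (adjusted p = 0.0916) or 2 (adjusted p = 0.0956), without the filter on low values (adjusted p = 0.0593) and against a minimum log2 change of 1 (adjusted p = 0.189). In these fits the value lay between -1.54 and -1.55, but it could hardly move. The filter and the minimum change leave it as it is, and the 2 differentiated libraries were nearly equal. Without undifferentiated library 1 or 2 it was -1.39 and -1.70, and over the alternatives it ran from -2.79 to -1.39.

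DUSP1 (ENSG00000120129), the inducible nuclear phosphatase of p38, JNK and ERK whose promoter is printed above, was listed at 4.5 and 4.58 TPM after differentiation, against 2.2 and 1.59 before it. Both differentiated values lay above both undifferentiated ones, yet DUSP1 was not called (log2 difference 0.94 ± 0.37, 95% interval 0.14 to 1.75, adjusted p = 0.0597). It was called higher under 7 of 14 alternatives, among them median-of-ratios scaling (adjusted p = 0.00382) and rescaling over protein-coding genes (adjusted p = 0.00174). It was not called without the filter on low values (adjusted p = 0.125) or against a minimum log2 change of 1. With 1 library left out at a time, its log2 difference lay between 0.79 and 1.10. Its adjusted p ranged from 0.00174 to 1 over the alternatives.

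DUSP2 and DUSP5 were scarce. DUSP2 (ENSG00000158050), an enzyme of activated leukocytes, was listed at 0.66 and 0.6 TPM after differentiation, against 0.53 and 0.2 before it, so its stages were close and lay below the filter. DUSP5 (ENSG00000138166), a nuclear phosphatase specific to ERK, was listed at 0.6 and 1.31 TPM after differentiation and at 0 in both undifferentiated libraries, and no fold is given. Without the filter their adjusted p was 0.501 and 0.129.

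The make-up of the phosphatase mRNAs differed between the stages, and such shares within a library are untouched by any factor that scales the whole library. These shares were chosen after the values were seen and carry no test. DUSP6 made up 87.1% and 88.6% of the summed TPM of the 6 phosphatases in the differentiated and 49.9% and 40.7% in the undifferentiated libraries. The 4 nuclear enzymes together made up 9.02% and 8.17% after and 43.4% and 49.1% before differentiation. On the deposited scale their sum was 6.10 and 6.82 TPM after differentiation, against 6.08 and 4.30 before it, while over protein-coding genes DUSP1, DUSP2 and DUSP5 were called higher and DUSP4 lower.

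Within the nuclear group, DUSP4 was the most abundant before differentiation and DUSP1 after it. The ratio of DUSP1 to DUSP4 was 13.2 and 13.9 in the differentiated and 0.657 and 0.634 in the undifferentiated libraries. It differed little between the libraries of a stage, although those of undifferentiated cells were shifted against each other.

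**Figure D2:**
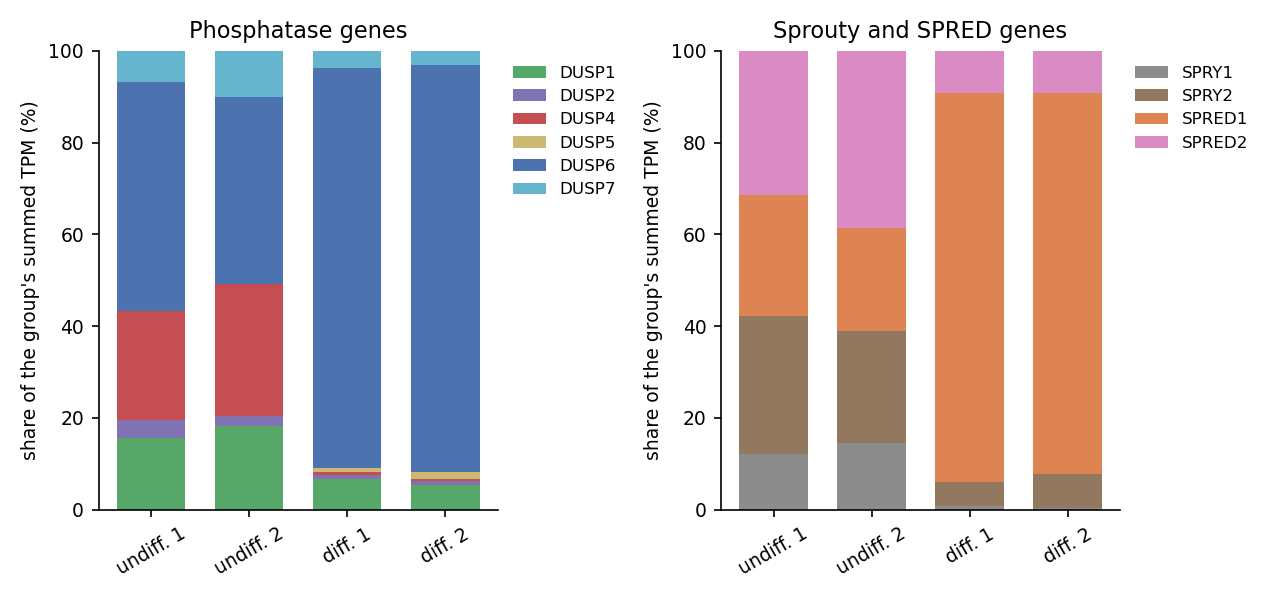
Make-up of the summed TPM of the 6 phosphatase genes (left) and of the 4 Sprouty and SPRED genes (right) in each library, in percent (y axis). Each bar is 1 library and each colour 1 gene. DUSP6 filled 87.1% and 88.6% and SPRED1 84.8% and 82.9% of the differentiated bars, while the undifferentiated bars were shared among several genes.

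Among the SPRED proteins, which inactivate RAS through neurofibromin, SPRED1 rose and SPRED2 was not called. SPRED1 (ENSG00000166068) was listed at 11.27 and 12.45 TPM after differentiation, against 2.09 and 0.74 before it. All differentiated values lay above the undifferentiated ones, which themselves differed by 2.82 times. The means were 11.9 ± 0.834 and 1.42 ± 0.955 TPM (SD, n = 2), with a log2 difference of 2.47 ± 0.41 (SE), a 95% interval from 1.58 to 3.36 and an adjusted p of 0.000365. The call was lost without differentiated library 1 (adjusted p = 0.0916) or 2 (adjusted p = 0.101) and narrowly without the filter on low values (adjusted p = 0.0514).

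SPRED2 (ENSG00000198369) was listed at 1.21 and 1.39 TPM after differentiation, against 2.49 and 1.28 before it, and the stages overlapped. Its log2 difference of -0.30 had a 95% interval from -0.99 to 0.40 (adjusted p = 0.494). The SPRED1 to SPRED2 ratio was 9.31 and 8.96 in the differentiated and 0.839 and 0.578 in the undifferentiated libraries, so the more abundant paralogue differed between the stages. NF1, their partner, was listed at 7.69 and 5.83 TPM after differentiation, against 8.12 and 3.22 before it, with overlapping stages.

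The Sprouty genes, whose products restrain receptor tyrosine kinase signalling, were low. SPRY2 (ENSG00000136158) was listed at 0.71 and 1.11 TPM after differentiation, against 2.4 and 0.81 before it, so 1 undifferentiated library stood high and the other lay between the differentiated ones. Its log2 difference of -0.39 had a 95% interval from -1.07 to 0.30 (adjusted p = 0.36). The value depended on the undifferentiated libraries: without library 2 SPRY2 was called lower (-0.84, adjusted p = 0.0298), and without library 1 the difference was 0.07 (adjusted p = 0.802). SPRY1 (ENSG00000164056) was listed at 0.1 and 0.07 TPM after differentiation, against 0.96 and 0.48 before it. The stages of SPRY1 did not overlap, but all values were under 1 TPM and its adjusted p without the filter was 0.181. Sprouty genes made up 6.10% and 7.86% of the summed TPM of the 4 Sprouty and SPRED genes after and 42.3% and 39.0% before differentiation.

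Ordered by mean TPM, the differentiated cells ran DUSP6, SPRED1, DUSP1, DUSP7, SPRED2, DUSP5, SPRY2, DUSP2, DUSP4 and SPRY1. The ranges of neighbours overlapped only for SPRED2 with DUSP5 and DUSP5 with SPRY2. In undifferentiated cells the order was DUSP6, DUSP4, DUSP1, SPRED2, SPRY2, SPRED1, DUSP7, SPRY1, DUSP2 and DUSP5. There the ranges of neighbours overlapped along the whole stretch from DUSP1 to DUSP2, while DUSP6 and DUSP4 stood above it and DUSP5 below. These libraries were shifted against each other, so ranges can overlap without a change of order. SPRED2, SPRY2 and SPRED1 kept their order in both libraries, as did SPRY1 and DUSP2, and the other neighbours in the stretch changed theirs. The 10 genes summed to 80.9 and 98.5 TPM after differentiation, against 22.0 and 12.1 before it. Leaving out DUSP6, the other 9 summed to 22.0 and 24.5 TPM after differentiation, against 14.97 and 8.5 before it.

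Calls of the weaker members differed between scalings of the libraries. Over all tested genes, the difference had a median of -0.14 (log2) as deposited, 0.04 with median-of-ratios scaling, -0.08 with quantile normalization, 0.37 with protein-coding genes rescaled and 0.04 with RNAs above 1% of a library left out. Relative to these medians, DUSP6 lay between 3.61 and 3.86, SPRED1 between 2.61 and 3.24, DUSP1 between 1.03 and 1.37 and DUSP7 between 0.95 and 1.51. DUSP4 lay between -1.41 and -2.55 and SPRED2 between -0.16 and -0.31 on the same relative scale. Rescaled over protein-coding genes, all 10 members passed the filter, 6 were called higher (DUSP1, DUSP2, DUSP5, DUSP6, DUSP7 and SPRED1) and 2 lower (DUSP4 and SPRY1). Rescaling also raised every value against the fixed pseudocount and filter of 1 TPM, so its values differ from the deposited ones in more than the scale of the libraries. With it, 34.3% of all 11945 tested genes were called higher and 18% lower. SPRED2 then had a log2 difference of 0.09, against -0.30 as deposited, and was called on neither scale.

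**Figure D3:**
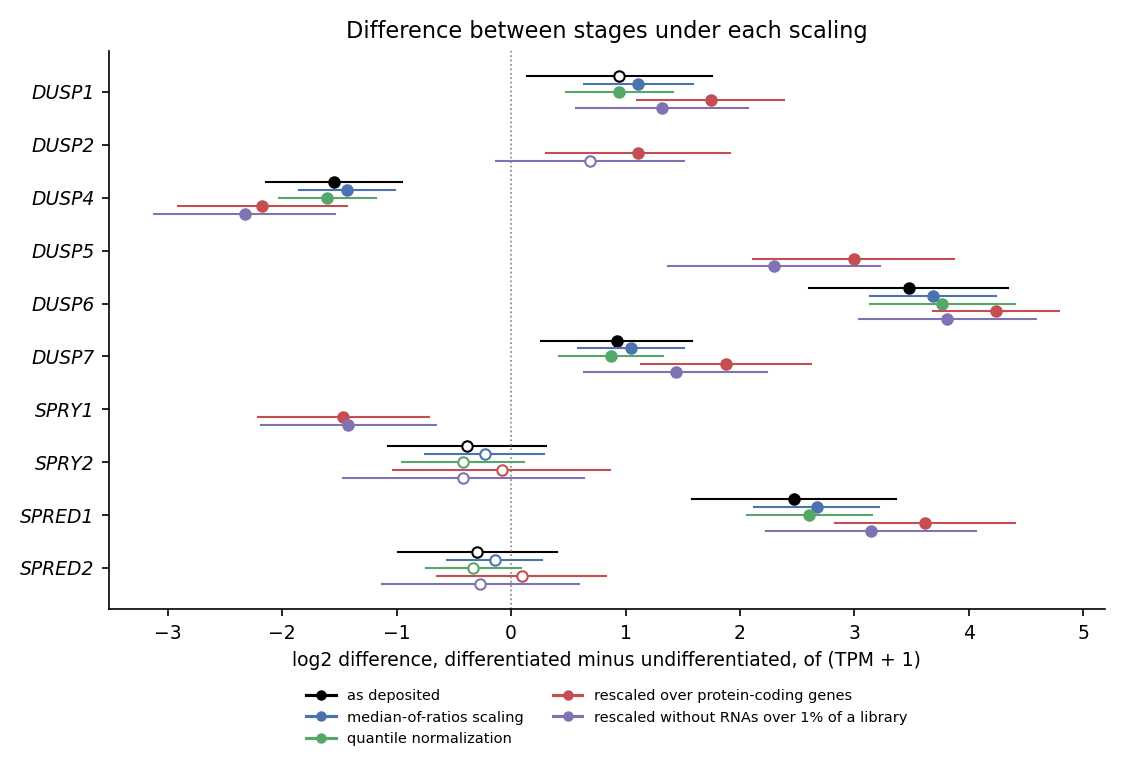
Log2 difference of each gene between the stages (x axis, differentiated minus undifferentiated, with 95% intervals) as deposited and under 4 other scalings of the libraries, in 5 colours. Filled points were called at an adjusted p below 0.05, open points were not, and a missing point means that the gene was below the filter on that scale. DUSP6 and SPRED1 lay right of 0 and DUSP4 left of it on every scale shown, whereas the intervals of SPRY2 and SPRED2 included 0.

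Relatives of the members were mostly scarce. DUSP10, a phosphatase of JNK and p38, was the only tested gene among the 4 other MAP kinase phosphatases and rose from 0.51 and 0.34 to 1.43 and 1.52 TPM (log2 difference 0.80 ± 0.22 SE, adjusted p = 0.0116), although not with eBayes without a trend (adjusted p = 0.0698), without the filter (adjusted p = 0.15) or against a minimum log2 change of 1 (adjusted p = 1). DUSP10 passed the filter only through the differentiated libraries. DUSP16 averaged 0.765 and 0.875 TPM, DUSP8 0.20 and 0.405 TPM and DUSP9 0.015 and 0.04 TPM, after and before differentiation. The means of SPRY4, SPRY3 and SPRED3 were 0.255, 0.145 and 0.045 TPM after differentiation, against 0.56, 0.02 and 0.005 before it, and none reached the filter.

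Of 15 atypical dual-specificity phosphatases, most of which lack the MAP kinase docking domain, 7 were tested. Of these 1 rose, 2 fell and 4 were not called (median log2 difference 0.34). Without the filter 12 were tested, 0 were called higher and 0 lower, and the median was 0.06. For this list and those below, the shares over all tested genes were 18.6% higher and 22.8% lower. Without the filter 687 of 29186 genes were called higher and 573 lower. DUSP3 passed the filter on low values only through the differentiated libraries. DUSP3 rose from 1.06 and 0.33 to 3.7 and 4.52 TPM, DUSP14 fell from 5.04 and 2.7 to 1.31 and 1.16 TPM, and DUSP12 fell from 9.91 and 7.4 to 3.23 and 4.17 TPM. Without differentiated library 1 or 2 these calls were lost, with an adjusted p of 0.0637 and 0.0728 for DUSP3, 0.357 and 0.416 for DUSP14 and 0.462 and 0.34 for DUSP12. With protein-coding genes rescaled DUSP12 was not called either (adjusted p = 0.0672), and 5 of 11 tested genes were called higher and 1 lower. Of all tested genes 34.3% were then called higher and 18% lower.

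Upstream of ERK, of 22 tested adaptors and RAS regulators (26 in all), 10 rose, 2 fell and 10 were not called, with a median log2 difference of 0.71. Of the genes that rose, RASGRP3, RASGRP4, RASA3, RASAL2, DOK1 and DOK2 passed the filter on low values only through the differentiated libraries. Without the filter 2 of the 26 were called higher and 0 lower, with a median of 0.67. The myeloid adaptor DOK2, which restrains RAS, rose from 0 and 0.07 to 8.32 and 9.15 TPM (log2 difference 3.23, adjusted p = 1.35e-05), and the myeloid RAS exchange factor RASGRP4 from 0 and 0.07 to 3.79 and 6.37 TPM (2.52, adjusted p = 4.19e-05). PTPN11, the phosphatase SHP2 that promotes RAS activation, fell from 28.17 and 21.17 to 9.68 and 6.59 TPM, and the adaptor GAB1 from 9.68 and 5.62 to 2.74 and 2.09 TPM. Most calls of the list were lost without differentiated library 1 or 2, where fewer of all tested genes were called too. The log2 difference was then -1.74 and -1.25 for PTPN11 and -1.44 and -1.17 for GAB1, and neither was called.

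In the core of the cascade, of 16 tested RAS, RAF, MEK, ERK and scaffold genes (19 in all), 2 rose, 3 fell and 11 were not called, with a median log2 difference of 0.24. All 5 calls were lost without the filter (adjusted p = 0.0772 for MAP2K1, 0.0962 for MRAS, 0.194 for PEBP1 and 0.308 for NRAS). MAP2K1, which encodes MEK1, rose from 2.01 and 1.46 to 5.39 and 6.87 TPM, and the RAS relative MRAS from 0.27 and 0.01 to 1.4 and 2.08 TPM. MRAS passed the filter on low values only through the differentiated libraries. NRAS fell from 12.5 and 3.63 to 2.13 and 2.28 TPM and PEBP1, a RAF inhibitor, from 12.1 and 6.1 to 2.77 and 3.8 TPM. Only the MRAS call remained without differentiated library 1 or 2, where fewer of all tested genes were called too. Without undifferentiated library 1, NRAS, PEBP1 and SHOC2, a RAF-activating scaffold, lost their lower calls. The log2 difference was then -0.53 for NRAS and -0.74 for PEBP1. In that fit the median over all tested genes was 0.15, against -0.14 with all libraries. Over protein-coding genes 9 of 18 tested genes were called higher and 1 lower, against 34.3% and 18% of all tested genes.

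In the p38, JNK and ERK5 branches 5 of 21 tested genes (26 in all) rose, 1 fell and 15 were not called. Their median log2 difference was 0.15, and 18.6% of all tested genes were called higher and 22.8% lower. Without the filter 3 of the 26 were called higher and 0 lower. MAP3K8, the kinase TPL2 that links Toll-like receptors to ERK, rose from 0.55 and 0.49 to 5.68 and 8.14 TPM (log2 difference 2.36, adjusted p = 0.000206). MAP3K8 and MAP3K5 passed the filter on low values only through the differentiated libraries. Without the filter MAP3K8 had an adjusted p of 0.033. MAPK13, a p38 kinase, rose from 1.04 and 1.21 to 7.63 and 5.89 TPM, and MAP3K1 fell from 26.5 and 10.27 to 6.18 and 5.37 TPM. Without differentiated library 1 or 2 the adjusted p was 0.113 and 0.0932 for MAPK13 and 0.306 and 0.362 for MAP3K1, and without undifferentiated library 1 it was 0.0566 for MAP3K1. Over protein-coding genes 10 of 26 tested genes were called higher and 2 lower, against 34.3% and 18% of all tested genes.

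Downstream of the kinases, 6 of 11 tested effector genes (14 in all) rose, 2 fell and 3 were not called, with a median log2 difference of 0.94. Without the filter 2 of the 14 were called higher and 0 lower, with a median of 0.50. MKNK1, an ERK and p38 target that phosphorylates eIF4E, rose from 3.11 and 1.64 to 15.76 and 16.22 TPM. ERF, an ETS repressor controlled by ERK, rose from 1.48 and 0.83 to 7.09 and 8.64 TPM. ERF and RPS6KA4 passed the filter on low values only through the differentiated libraries. MAPKAPK2, the p38-activated kinase that stabilizes cytokine mRNAs, fell from 18.02 and 11.43 to 4.09 and 3.9 TPM, and MAPKAPK5 from 12.85 and 9.22 to 4.19 and 5.17 TPM. None of the calls in this list remained without differentiated library 1 or 2, where fewer of all tested genes were called too. The log2 difference was then 2.39 and 2.35 for MKNK1 and 2.18 and 1.925 for ERF. For MAPKAPK2 it was -1.65 and -1.59, and for MAPKAPK5 -0.95 and -1.20.

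Of 18 transcripts known to respond to ERK activity, 10 were tested, of which 8 rose and 2 fell, with a median log2 difference of 1.70. Without the filter on low values all 18 were tested, 5 were called higher and 1 lower, and the median was 0.32. IER3, an immediate-early survival gene, rose from 0.34 and 0.24 to 23.07 and 28.03 TPM (log2 difference 4.36, adjusted p = 3.28e-06), and FOS, an AP-1 subunit, from 0.13 and 0.04 to 18.62 and 18.16 TPM (4.16, adjusted p = 4.05e-06). MYC, the growth regulator, fell from 54.87 and 40.12 to 10.22 and 11.91 TPM (-1.99, adjusted p = 0.000832), and the ETS factor ETV5 from 15.88 and 11.23 to 5.52 and 6.42 TPM (-1.05, adjusted p = 0.0435). The calls of MYC and ETV5 and some of the higher calls were lost without differentiated library 1 or 2. Fewer of all tested genes were called in those fits too. The log2 difference was then -1.89 and -2.09 for MYC and -0.95 and -1.14 for ETV5. With protein-coding genes rescaled ETV5 was not called (adjusted p = 0.0626). EGR1, EGR2, FOS, FOSB and IER3 were listed under 1 TPM in both undifferentiated libraries, and IER2 in 1 of them, so these passed the filter only through the differentiated libraries.

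Proteins that bind AU-rich elements, which mark short-lived mRNAs such as that of DUSP1, went both ways, with 3 of 7 higher, 2 lower and 2 not called (median log2 difference -0.06). ZFP36, the decay factor tristetraprolin, rose from 2.05 and 1.27 to 49.92 and 48.38 TPM (log2 difference 4.25, adjusted p = 3.72e-06), and its relative ZFP36L2 rose from 3.4 and 1.96 to 34.31 and 41.13 TPM. HNRNPD, which encodes AUF1, fell from 90.3 and 72.29 to 13.96 and 13.64 TPM (log2 difference -2.47, adjusted p = 0.000133). ELAVL1, which encodes the stabilizing protein HuR, fell from 12.69 and 6.52 to 2.42 and 3.62 TPM (adjusted p = 0.0208), and its call was lost without differentiated library 1 (adjusted p = 0.391) or 2 (adjusted p = 0.252) and without undifferentiated library 1 (adjusted p = 0.0535). Among the called genes named from these lists, DOK2, RASGRP4, MAP3K8, IER3, FOS, ZFP36, ZFP36L2 and HNRNPD kept their calls under every alternative in which they were tested.

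**Figure D4:**
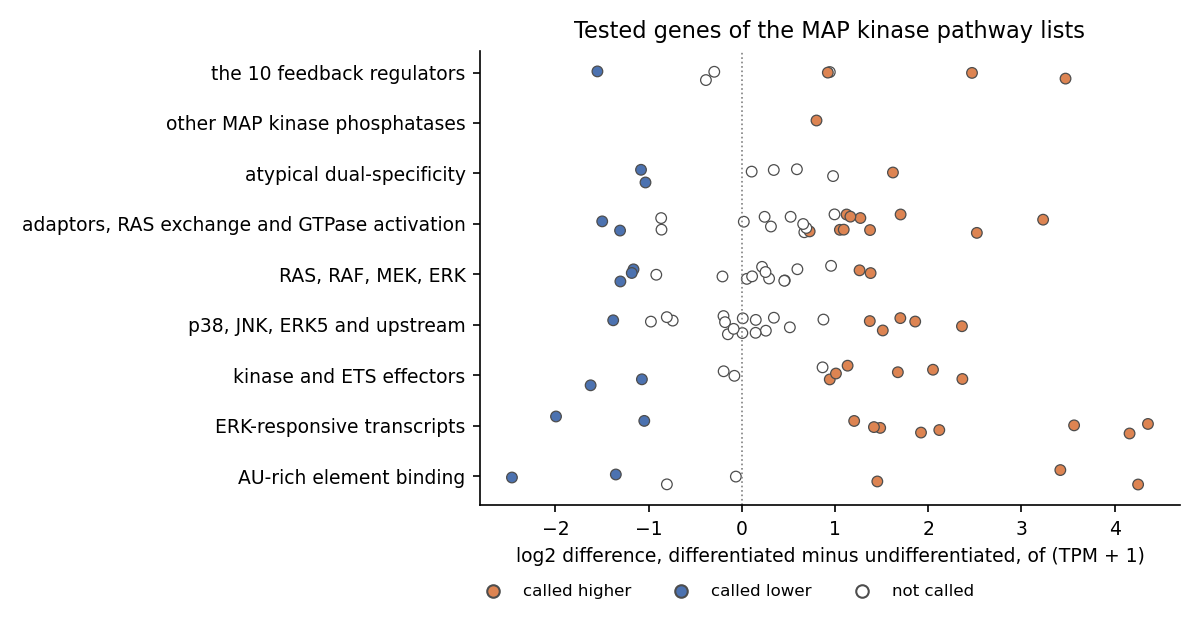
Log2 difference between the stages (x axis, differentiated minus undifferentiated) of every tested gene in the 10 feedback regulators and 8 related lists (rows). Orange points were called higher, blue points lower and white points were not called, and vertical scatter within a row has no meaning. In the ERK-responsive row 8 of 10 points were orange, and most of these genes passed the filter only through the differentiated libraries. Without the filter 5 of 18 were called higher. In the row of p38, JNK and ERK5 15 of 21 points were white, and of all 10180 tested genes 5964 were not called.

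The genes whose values were most like those of DUSP6, by Euclidean distance of log2(TPM + 1) over the 4 libraries, were SRGN, TGFB1 and LPAR6, at distances of 0.42, 0.45 and 0.58. SRGN, which encodes the granule proteoglycan serglycin, was listed at 68.44 and 74.84 TPM after differentiation, against 5.24 and 3.69 before it. TGFB1, a growth factor gene, was listed at 56.52 and 72.48 TPM after differentiation, against 4.88 and 3.46 before it. For DUSP4 the nearest genes were HEBP2, EFCAB2 and C17orf51, at distances of 0.20, 0.21 and 0.23. HEBP2 was listed at 0.49 and 0.27 TPM after differentiation, against 3.14 and 2.31 before it. Likeness over 4 libraries describes level and direction only.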

How the data were processed

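The deposited table holds TPM for 58302 genes in 4 libraries, which the authors made with Trimmomatic, STAR and RSEM, per the submitters' processing notes. Tool versions, the genome build and the annotation used for counting: not given in the sources used here. RNA was total RNA and libraries were stranded, per the labels' protocols. RSEM shares reads among similar genes, so values of close paralogues carry added uncertainty. Columns were assigned by sample titles, and stages by the labels.

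The 10180 genes that reached 1 TPM in 2 or more of the 4 libraries were compared on log2(TPM + 1) with limma 3.58.1 in R 4.3.3 (moderated variances with a trend, two-sided, 2 residual and 10.9 prior degrees of freedom). Fold changes on this scale understate those of low genes. Adjustment was by Benjamini-Hochberg across every tested gene, and a call needs a value below 0.05. An exact permutation of 2 against 2 libraries cannot give a p below 0.333. Ratios of means are of plain TPM. The procedure was tested on simulated data with independent noise, few changed genes and no shift between libraries. That test does not cover a shift such as that between the undifferentiated libraries.

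The members and lists were chosen with earlier results of these data known. Named from each pathway list were up to 2 called genes with the largest change in each direction. NF1, SHOC2 and genes named for passing the filter only through the differentiated libraries were added after their values were seen. Gene types came from GENCODE 29 and promoters from RefSeq. Alternatives varied the pseudocount, filter, scaling, variance model, threshold, replicate block and libraries.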

Additional observations from a re-analysis of the deposited data

How the results depend on the processing

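As deposited, 1890 of 10180 tested genes were called higher and 2326 lower, and of 7 tested members 3 were called higher and 1 lower. Without the filter on low values 29186 genes and all 10 members were tested. The calls were then 687 and 573 genes, and 1 and 0 members. A filter at 5 TPM left 4511 genes, of which 1016 were called higher and 1420 lower. Of the members only DUSP6 and SPRED1 were tested there, and both were called higher. Against a minimum log2 change of 1 the calls were 698 and 607 genes, and 2 and 0 members. Median-of-ratios scaling gave 2915 higher genes of 10180. Rescaling gave 3089 of 13787 without RNAs above 1% of a library and 4102 of 11945 over protein-coding genes. These 2 rescalings tested all 10 members and gave 5 and 6 higher members, and 2 lower members each. The share of calls that were higher was 44.83% as deposited and 65.58% over protein-coding genes.

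Leaving out each library in turn gave 934 to 2714 higher and 337 to 3818 lower genes, and 1 to 4 higher and 0 to 2 lower members. The lone library of a stage is then assumed to vary like the other stage. SPRY2 ranged from -0.84 to 0.07 and SPRED2 from -0.60 to 0.01 in these fits, and SPRED2 was 0.09 over protein-coding genes. The cause was not tested.

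Whether equal replicate numbers pair the libraries is unknown. Same-numbered deviations had a correlation of -0.024, and 2 libraries per stage cannot decide it. With the number as a replicate block, 1730 genes were called higher and 2036 lower, and 2 members higher and 1 lower; DUSP7 had an adjusted p of 0.0528. Read depth behind the values is unknown, which limits what can be said of members under 1 TPM.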
